A study of Mus musculus with 6 samples.

Results

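The 10 genes described here, Ager, Hopx, Aqp5, Pdpn, Rtkn2, Clic5, Igfbp2, Cav1, Akap5 and Emp2, are markers of the alveolar type 1 (AT1) cell and were taken by symbol from the 56262 genes of the lung count table. RNA sequencing had been done on whole lungs of 3 R/R mice and 3 wild-type (WT) mice, which were littermates, 8 weeks old and untreated, on a C57BL/6 background. R/R mice carry the lysine-to-arginine changes K329R and K332R on both alleles of Rbm47, which encodes an RNA-binding protein, placed there with CRISPR/Cas. The change is carried by every cell of the mouse, so a difference in the lung cannot be assigned to AT1 cells, and K329R and K332R are always present together.

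AT1 cells are thin, flat epithelial cells that cover most of the alveolar surface and form, with capillary endothelium and a shared basement membrane, the barrier across which gas is exchanged. They arise in the adult lung from alveolar type 2 (AT2) cells, the cuboidal cells that make surfactant, and their markers include membrane receptors and channels, caveolar and cytoskeletal proteins and the transcriptional cofactor HOPX. In bulk tissue, fewer AT1 cells and less RNA of these genes per AT1 cell cannot be told apart.

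The 6 libraries held between 16501092 and 18141067 counts, and 3 counts corresponded to 0.165 to 0.182 CPM (counts scaled to the library size, with the trimmed mean of M-values, so that libraries can be compared). Levels of Rbm47 itself were 32.7, 33.5 and 34.1 CPM in the R/R lungs and 28.8, 30.5 and 34.4 CPM in the WT lungs, which overlapped. Rbm47 had a log2 fold change (R/R minus WT) of 0.10 ± 0.08 (SE) and an adjusted p of 0.660 in edgeR. A count table does not show the coding change, so this level does not check the labels. Among the 17120 genes that passed the filter on low counts, 300 (1.75%) reached an adjusted p under 0.05 and are called changed here, 111 (0.648%) of them higher and 189 (1.1%) lower in R/R lungs.

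All 10 AT1 genes passed the filter, and no AT1 or AT2 marker was at 0 counts in any lung. In R/R lungs 6 of the 10 AT1 genes had a higher and 4 a lower fitted level. Their median log2 fold change was 0.01, beside 0.00 over all genes tested. Aqp5, the water channel of the apical AT1 membrane, was the 1 gene of the 10 that was called, and it was higher in R/R lungs. No AT1 gene was called lower, by edgeR or by DESeq2. At an unadjusted p under 0.05, 2 of the 10 genes (Aqp5 and Hopx) passed, beside 14.2% of all genes tested. The R/R and WT lungs did not overlap for 3 of the 10 genes, of which 2 (Aqp5 and Hopx) were higher and 1 (Akap5) lower in every R/R lung. Over all genes tested the lungs did not overlap for 18.7%, with 9.17% higher and 9.5% lower in every R/R lung. With 3 lungs against 3, an exact two-sided permutation test cannot give a p below 0.1, which was the value for each of these 3 genes.

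**Figure D1:**
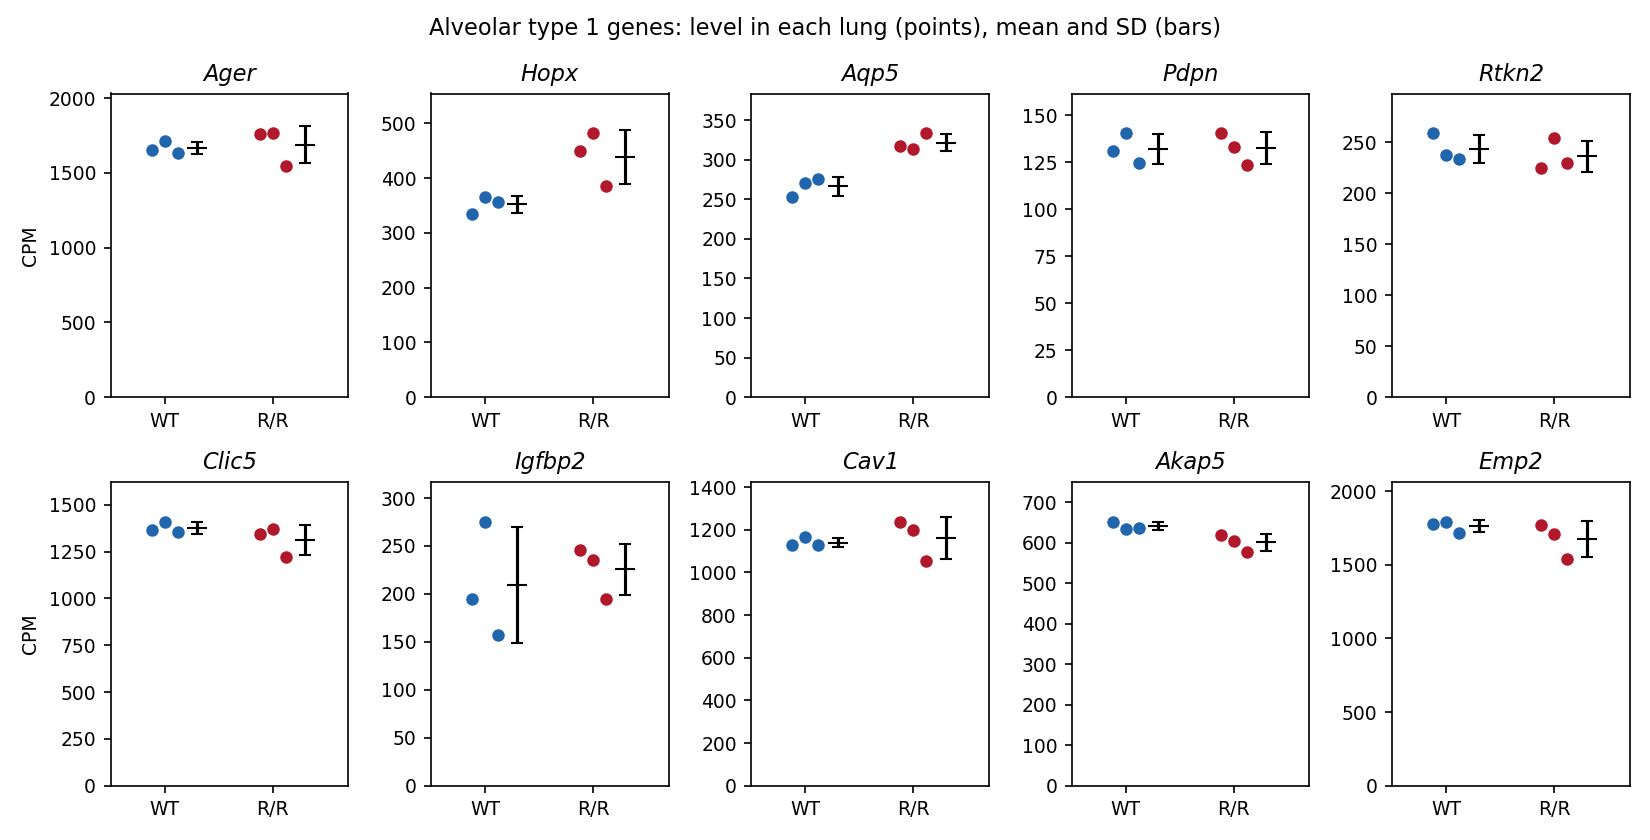
Level in CPM (vertical axes, starting at 0) of each of the 10 AT1 genes in the 3 WT lungs (blue points, replicates 1 to 3 from left to right) and the 3 R/R lungs (red points), with the mean and SD of each group as black bars. The R/R points lie above all WT points for Hopx and Aqp5 and below them for Akap5, and the groups overlap for the other 7 genes.

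Positions below are those of the count table, in GRCm38. Aqp5 (chr15:99590782-99594829, plus strand) encodes aquaporin 5, through which water crosses the AT1 cell surface. Its level was 317, 314 and 334 CPM in the R/R lungs and 253, 271 and 276 CPM in the WT lungs. The lowest R/R lung was thus above the highest WT lung, and the lungs of either genotype lay close together. The mean was 321 ± 10.7 CPM (SD, n = 3) in R/R and 267 ± 11.9 CPM (SD, n = 3) in WT lungs. The difference was 1.20-fold, a log2 fold change of 0.27 ± 0.06 (SE) with a 95% interval of 0.14 to 0.40 and an adjusted p of 0.0459 in edgeR, close to the threshold. The call was kept without WT replicate 3 (adjusted p = 0.0298). It was lost without any of the others, at 0.106, 0.125 and 0.124 with R/R replicates 1 to 3 left out in turn and at 0.198 and 0.133 with WT replicates 1 and 2 left out, while the log2 fold change stayed between 0.23 and 0.29.

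Hopx (chr5:77086988-77115121, minus strand) encodes a small homeodomain protein that does not bind DNA by itself and acts as a transcriptional cofactor. It had the largest fold change of the 10 genes. Its level was 449, 482 and 386 CPM in the R/R lungs and 335, 365 and 357 CPM in the WT lungs. Every R/R lung was higher than every WT lung, but R/R replicate 3 stood much nearer to the WT lungs than the other R/R lungs did. The log2 fold change was 0.32 ± 0.08 (SE), or 1.25-fold, with an adjusted p of 0.0773, so Hopx was not called. It passed the threshold without R/R replicate 3 (adjusted p = 0.0327), with DESeq2 (0.00647), with the edgeR exact test (0.0144) and with no filter on low counts (1.07e-04). Hopx shares 412 exon bases with the antisense gene Hopxos, and the counting did not use strand. The counts assigned to Hopxos were 4.05 to 5.36 CPM in R/R and 4.10 to 5.63 CPM in WT lungs.

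The receptors and surface glycoproteins overlapped between the genotypes. Ager (chr17:34597862-34600936, plus strand) encodes RAGE, the receptor for advanced glycation end products, which is held at the basal AT1 membrane. Ager was at 1757, 1766 and 1545 CPM in the R/R lungs and 1655, 1710 and 1630 CPM in the WT lungs. The R/R lungs held both the highest and the lowest of these values. Its log2 fold change was 0.02 ± 0.07 (SE), with a 95% interval of -0.14 to 0.18 and an adjusted p of 0.940, so that a change larger than about 1.14-fold in R/R lungs lies outside the interval. Pdpn (chr4:143267431-143299564, minus strand) encodes podoplanin, a mucin-like glycoprotein of the apical AT1 membrane. Pdpn was at 141, 133 and 124 CPM in the R/R lungs and 131, 140.5 and 125 CPM in the WT lungs, which overlapped almost completely. Its log2 fold change was 0.00 ± 0.07 (SE), with an adjusted p of 0.987.

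The 2 AT1 genes of caveolae and membrane domains also overlapped between genotypes. Cav1 (chr6:17306335-17341452, plus strand), whose product caveolin 1 coats the caveolae of AT1 and endothelial cells alike, was at 1238, 1197 and 1051 CPM in the R/R lungs and 1127, 1164 and 1126 CPM in the WT lungs. R/R replicate 3 lay below the WT lungs and the other R/R lungs above them, and the log2 fold change was 0.03 ± 0.07 (SE; adjusted p = 0.912). Emp2 (chr16:10281749-10313968, minus strand) encodes a tetraspan membrane protein of the AT1 surface. Emp2 was at 1773, 1706 and 1536 CPM in the R/R lungs and 1778, 1793 and 1717 CPM in the WT lungs. Again R/R replicate 3 was the lowest lung, and the log2 fold change was -0.08 ± 0.07 (SE; adjusted p = 0.715).

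The genes of cytoskeletal anchoring and signalling had fitted levels slightly below those of WT lungs, and none was called. Akap5 (chr12:76324891-76334153, plus strand) encodes a scaffold that holds protein kinase A and other enzymes at the membrane. Akap5 was at 618, 605 and 577.5 CPM in the R/R lungs and 652, 633 and 635 CPM in the WT lungs. The lowest WT lung was above the highest R/R lung, and the log2 fold change was -0.09 ± 0.06 (SE; adjusted p = 0.536). Clic5 (chr17:44134768-44280172, plus strand), whose product links membranes to the actin cytoskeleton through ezrin and its relatives, was at 1345, 1368 and 1220 CPM in the R/R lungs and 1363, 1410 and 1354 CPM in the WT lungs. These overlapped, with a log2 fold change of -0.07 ± 0.07 (SE; adjusted p = 0.728). Rtkn2 (chr10:67979570-68059740, plus strand) encodes a relative of the signalling protein rhotekin, and it was at 225, 254 and 230 CPM in the R/R lungs and 259, 237 and 233 CPM in the WT lungs. The groups overlapped, and the log2 fold change was -0.04 ± 0.07 (SE; adjusted p = 0.845). Rtkn2 shares 216 exon bases with the antisense gene Gm16212, to which 0 to 10 counts were assigned in each lung.

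Igfbp2 (chr1:72824503-72852474, plus strand), the secreted member of the 10, encodes an insulin-like growth factor binding protein that marks mature AT1 cells. It was the most variable of the 10, at 246, 235 and 195 CPM in the R/R lungs and 194, 275 and 157 CPM in the WT lungs. The WT lungs alone spanned all the R/R values. The log2 fold change was 0.11 ± 0.16 (SE), with a 95% interval of -0.24 to 0.46 and an adjusted p of 0.826, so the precision for Igfbp2 was the poorest of the 10.

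**Figure D2:**
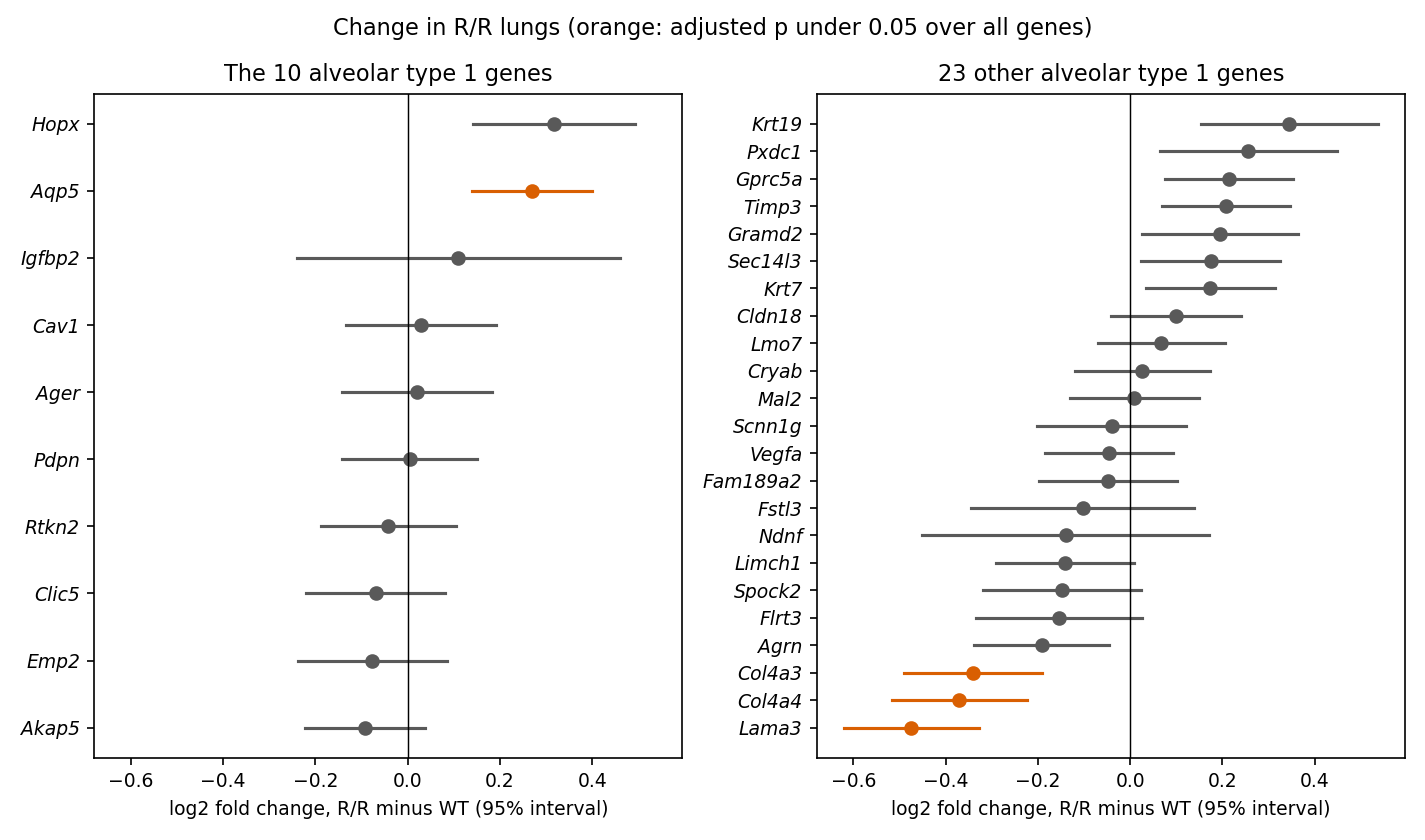
Log2 fold change, R/R minus WT (horizontal axes), of the 10 AT1 genes and of 23 other AT1 genes, each with its 95% interval from edgeR, and orange where the adjusted p over all genes tested was under 0.05. Aqp5 is the orange gene on the left, and Lama3, Col4a4 and Col4a3 are the orange genes on the right, all 3 below 0.

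Between genes, levels were compared per kilobase of exon (RPKM, the CPM divided by the exon length in kilobases, mean over the 6 lungs). Ager was the highest at 783 RPKM, followed by Cav1 at 334, Hopx at 261, Emp2 at 199, Clic5 at 139, Igfbp2 at 118, Aqp5 at 113, Akap5 at 90.9, Pdpn at 72.8 and Rtkn2 at 43.2 RPKM. The ranges of neighbours in this order did not overlap except for Cav1 with Hopx, Clic5 with Igfbp2 and Igfbp2 with Aqp5. Cav1 was nevertheless above Hopx in 6 of 6 lungs, whereas Clic5 was above Igfbp2 in 5 and Igfbp2 above Aqp5 in 4. The place of Cav1 includes its RNA from endothelium, a tissue that expresses it strongly.

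Summed over the 10 genes, the level was 8110, 8060 and 7197 CPM in the R/R lungs and 7747, 7999 and 7611 CPM in the WT lungs. R/R replicate 3 had the lowest sum and also the lowest level of 6 of the 10 genes (Ager, Pdpn, Clic5, Cav1, Akap5 and Emp2), although it held the highest level of Aqp5. Without R/R replicate 3 the median log2 fold change of the 10 genes was 0.066 in place of 0.013, and without WT replicate 3 it was -0.049. In log2 CPM centred on each gene's mean, the 10 genes averaged 0.07, 0.08 and -0.08 in the R/R lungs and -0.04, 0.04 and -0.08 in the WT lungs. The genotypes overlapped in this average, and a WT and an R/R lung were about equally low.

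**Figure D3:**
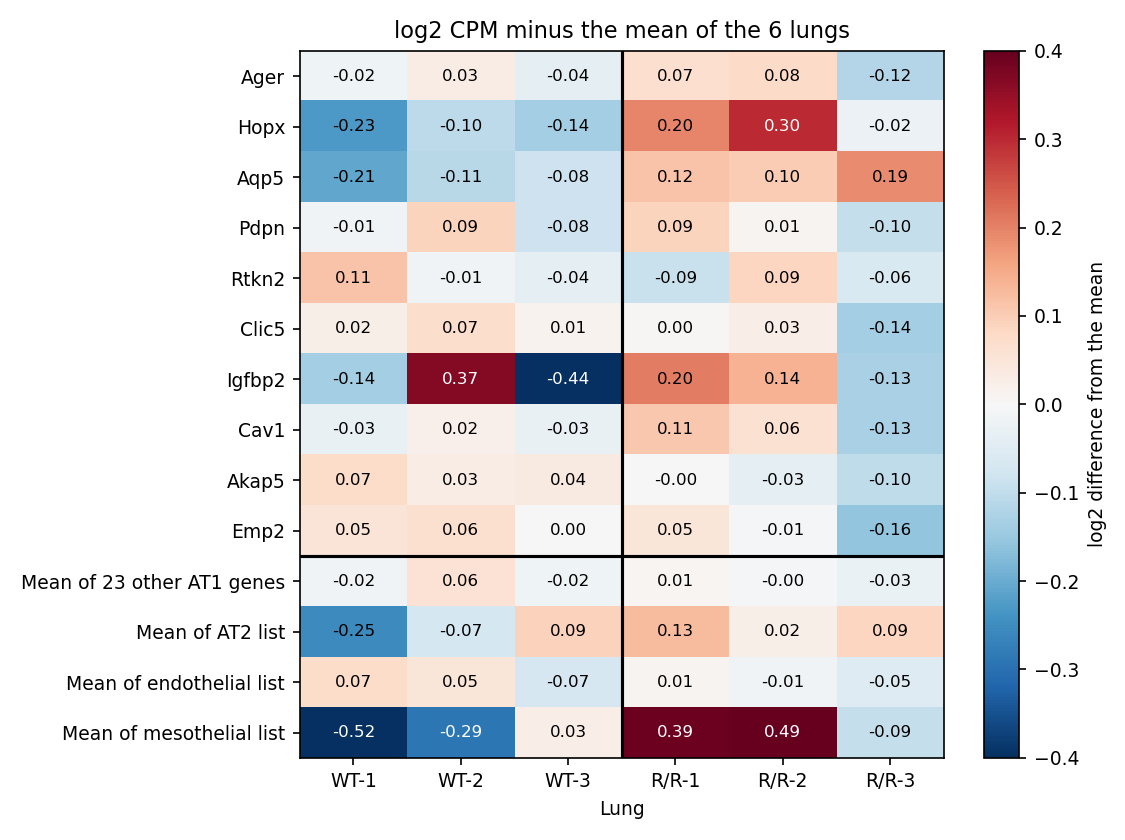
Difference of log2 CPM from the mean of the 6 lungs (colour and printed value) for each of the 10 AT1 genes, and below the line the mean of this difference over 23 other AT1 genes and over the AT2, endothelial and mesothelial marker lists. Aqp5 and Hopx change colour between the genotypes except that Hopx is at -0.02 in R/R replicate 3, Igfbp2 varies most among the WT lungs, and the AT2 and mesothelial means are lowest in WT replicate 1.

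A further 23 genes that mark AT1 cells were split in direction, 11 higher and 12 lower, and the median of their log2 fold changes was -0.04. By edgeR none of them was called higher and 3 were called lower, with 11 of the 23 at an unadjusted p under 0.05, and DESeq2 called the same 3 lower and 3 (Krt19, Gprc5a and Timp3) higher. Over all genes tested, 1.1% were called lower by edgeR and 14.2% had an unadjusted p under 0.05. All 3 encode chains of the alveolar basement membrane: Lama3 the laminin alpha 3 chain, and Col4a3 and Col4a4 the collagen IV chains that assemble together with alpha 5. Lama3 was at 252, 256 and 244 CPM in the R/R lungs and 330.5, 381 and 333 CPM in the WT lungs, a log2 fold change of -0.47 ± 0.07 (SE) with an adjusted p of 0.00856. The call for Lama3 was kept without each lung in turn, at adjusted p values up to 0.0384. Col4a4 was at 351.5, 348 and 346 CPM in R/R lungs and 448, 487.5 and 415 CPM in WT lungs, or -0.37 ± 0.07 (SE) as a log2 fold change, adjusted p = 0.0235. Col4a3 was at 403, 426.5 and 383 CPM in R/R lungs and 513, 544 and 478 CPM in WT lungs, or -0.34 ± 0.07 (SE) as a log2 fold change, adjusted p = 0.0341. The R/R and WT lungs did not overlap for any of the 3 genes. The calls for both collagen genes were kept without WT replicate 3 (adjusted p of 0.00471 for Col4a4 and 0.0101 for Col4a3). They were lost without any other lung, at 0.0534, 0.0955 and 0.0683 for Col4a4 and 0.0907, 0.0745 and 0.0958 for Col4a3 without R/R replicates 1 to 3. Without WT replicates 1 and 2 they were 0.0783 and 0.0851 for Col4a4 and 0.120 and 0.133 for Col4a3. Col4a3 shares 563 exon bases with a gene on the other strand, C430014B12Rik.

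Col4a3 and Col4a4 lie head to head on chromosome 1. Their starts in the count table are separated by 71 bases, so both are transcribed outward from the sequence that follows. It is shown because the 2 genes moved together, on the plus strand of GRCm38.p6, with CG dinucleotides in capitals.
Col4a4-Col4a3 interval, chr1:82586850-82586920: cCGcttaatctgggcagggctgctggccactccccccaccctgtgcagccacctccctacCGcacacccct
The interval is 69% G or C and holds 2 CG dinucleotides.

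RefSeq windows of the 250 bases before a start were at hand for 9 of the 10 AT1 genes, 12 windows in all, and were searched on both strands for short motifs. The core letters GGAATG of TEAD factors, which act with YAP and TAZ in AT1 cells, occurred in 0 of the 12 windows and in 12.6% of 32851 windows of all genes. The core letters CTCAAG of NKX2-1, the factor that marks lung epithelium, occurred in 2 of the 12 (Hopx and Igfbp2) and in 13.3% of all windows. TATAAA occurred in 1 (Cav1) and in 12.4% of all windows. A CArG box, the element of serum response factor, occurred in 2 of the 12 (Ager and Hopx) and in 1.47% of all windows. The Ager and Hopx windows are shown because they hold these matches (GRCm38.p6, 5′ to 3′ along the gene, matches in capitals).
Ager, chr17:34597600-34597849, plus strand: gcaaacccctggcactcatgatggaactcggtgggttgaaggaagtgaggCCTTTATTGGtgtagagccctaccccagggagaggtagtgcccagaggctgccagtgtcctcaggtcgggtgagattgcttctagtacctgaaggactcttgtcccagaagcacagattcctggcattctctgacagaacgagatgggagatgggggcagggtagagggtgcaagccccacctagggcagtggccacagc
Hopx, chr5:77115124-77115373, minus strand: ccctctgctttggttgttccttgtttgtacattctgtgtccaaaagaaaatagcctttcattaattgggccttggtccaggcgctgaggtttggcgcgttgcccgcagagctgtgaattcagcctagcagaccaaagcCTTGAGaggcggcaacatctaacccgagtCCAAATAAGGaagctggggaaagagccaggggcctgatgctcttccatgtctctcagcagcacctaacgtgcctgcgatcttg
In the Ager window the capitals mark a CArG box 200 bases before the start. In the Hopx window they mark an NKX2-1 core match on the other strand, 112 bases before the start, and a CArG box 83 bases before it. As given above, the lungs overlapped between genotypes for Ager and did not for Hopx.

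Genes that work with the AT1 proteins were read from 10 lists of related genes, the 23 AT1 genes included, with 124 members tested. Of these, 66 had a higher and 58 a lower fitted level, 3 were called higher and 3 lower. Over all genes tested, 0.648% were called higher and 1.1% lower. Of the 124 related genes, 32 had an unadjusted p under 0.05, beside 14.2% of all genes tested. The related genes called lower were Lama3, Col4a3 and Col4a4. Among 12 ligands and partners of RAGE, 6 had a higher and 6 a lower fitted level, and 4 had an unadjusted p under 0.05. Of these 4, S100a8 (log2 fold change -1.19, adjusted p = 0.199), S100a9 (-1.19, 0.191) and S100b (-0.90, 0.323) were not called and had a lower fitted level. The called gene was S100a6, which encodes a small calcium-binding protein. S100a6 was at 174, 140 and 142 CPM in R/R lungs and 98.5, 99.9 and 120 CPM in WT lungs, a log2 fold change of 0.52 ± 0.10 (SE) with an adjusted p of 0.0256. Among 18 regulators of AT1 fate, 10 had a higher and 8 a lower fitted level, and 1 was called. It was Ccn1, a matricellular protein gene and a well-known target of YAP. In the same list Ccn2 (log2 fold change 0.26, adjusted p = 0.474), Ankrd1 (0.22, 0.619) and Amotl2 (0.01, 0.960) were not called. Ajuba (-0.15, 0.436) and Yap1 itself (-0.10, 0.452) were not called either. Ccn1 was at 189, 195 and 170.5 CPM in R/R lungs and 75.4, 90.1 and 108 CPM in WT lungs, a log2 fold change of 1.02 ± 0.11 (SE) with an adjusted p of 0.00193. Every R/R lung exceeded every WT lung for both S100a6 and Ccn1. The call for Ccn1 was kept without each lung, whereas that for S100a6 was kept without WT replicate 3 (0.00458) and lost without each other lung: 0.0512, 0.0607 and 0.0505 without R/R replicates 1 to 3, and 0.116 and 0.0941 without WT replicates 1 and 2.

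The family of Igfbp2 was read from 16 tested genes of insulin-like growth factor ligands, receptors and binding proteins. Of these, 9 had a higher and 7 a lower fitted level, and 3 had an unadjusted p under 0.05 (14.2% of all genes tested). edgeR called 1 of them, Igfbp6, beside 1.75% of all genes tested. Igfbp6 was at 234, 234 and 160 CPM in R/R lungs and 115, 116 and 160 CPM in WT lungs, a log2 fold change of 0.69 ± 0.15 (SE) with an adjusted p of 0.0444. R/R replicate 3 and WT replicate 3 were all but equal. The call was kept without each of these lungs (0.0242 and 0.00544) and lost without replicate 1 or 2 of R/R (0.123 and 0.182) or of WT (0.181 and 0.157), and with DESeq2 the adjusted p was 0.0847.

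edgeR called no gene in the remaining 6 related lists, where 12 genes had an unadjusted p under 0.05 (14.2% of all genes tested did). Of these 12, 1 was among 9 caveolar coat genes and 3 among 9 CLIC and ERM genes. A further 2 were among 7 podoplanin partners and 2 among 6 genes of the EMP and PMP22 family. DESeq2 called 4 genes in these lists, with Ehd2, Cd9 and Emp1 among them. The genes with the smallest p in 4 of these lists had the following values. Among 9 caveolar coat genes it was Ehd2, an ATPase of the caveolar neck, with a log2 fold change of -0.19 ± 0.06 (SE; adjusted p = 0.177). In the next 2 lists it was the chloride channel relative Clic3 at 0.23 ± 0.07 (0.119) among 9 CLIC and ERM genes, and the tetraspanin Cd9 at 0.23 ± 0.07 (0.125) among 7 podoplanin partners. Emp1, a relative of Emp2, stood at -0.32 ± 0.07 (0.0521) among 6 genes of the EMP and PMP22 family.

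The markers of other alveolar and lung cells were read beside the AT1 genes, and their part in the AT1 values was not tested. All 11 AT2 genes had a higher fitted level in R/R lungs, as did 8769 of all 17120 genes tested. Their median log2 fold change was 0.14. edgeR called none (1.75% of all genes tested), and DESeq2 called 1, Sftpc, for surfactant protein C. Of the 11, 4 had an unadjusted p under 0.05 (14.2% of all genes tested). Every R/R lung was above every WT lung for 1 of the 11 (9.17% of all genes tested). The sum of the AT2 genes was 28680, 27710 and 27250 CPM in the R/R lungs and 21510, 23880 and 27010 CPM in the WT lungs, with WT replicate 1 the lowest. The AT2 gene with the smallest p was Napsa, which encodes a protease that processes surfactant proteins, with a log2 fold change of 0.25 ± 0.08 (SE; adjusted p = 0.172). The mean log2 CPM of the 10 AT1 genes minus that of the AT2 genes was -1.09, -0.99 and -1.20 in the R/R lungs and -0.82, -0.93 and -1.21 in the WT lungs. This balance overlapped between the genotypes, at -1.10 ± 0.11 (SD, n = 3) in R/R and -0.99 ± 0.20 (SD, n = 3) in WT lungs, a difference of -0.11. With summed CPM in place of the mean log2 CPM, it was -1.84 ± 0.07 (SD, n = 3) in R/R and -1.63 ± 0.18 (SD, n = 3) in WT lungs, a larger difference of -0.22, and WT replicate 3 alone of the WT lungs lay within the R/R range.

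Of the other sources of AT1 gene RNA, endothelium expresses Cav1, and mesothelium and lymphatic endothelium express Pdpn. Over all genes tested, edgeR called 1.75%, and 14.2% had an unadjusted p under 0.05. The endothelial list (12 genes, 4 higher and 8 lower, none called by edgeR or DESeq2 and 1 at an unadjusted p under 0.05) summed to 7882 to 8232 CPM in R/R and 7750 to 8543 CPM in WT lungs. The lymphatic list (5 genes tested, all higher, none called by edgeR, 2 at an unadjusted p under 0.05 and 1, Lyve1, called by DESeq2) summed to 454.5 to 524 CPM in R/R and 335.5 to 421 CPM in WT lungs. Among its members Ccl21a had 0 counts in all but 1 library. The mesothelial list (8 genes, 7 higher, 1 called by edgeR, 7 at an unadjusted p under 0.05, of which Upk1b was lower, and 3, Lrrn4, Muc16 and Krt19, called by DESeq2) summed to 289 to 388 CPM in R/R and 248 to 305 CPM in WT lungs. Krt19 is also among the 23 other AT1 genes. The gene that edgeR called was Lrrn4, at 18.5, 19.7 and 14.7 CPM in R/R lungs and 7.41, 8.11 and 10.8 CPM in WT lungs, a log2 fold change of 1.005 ± 0.158 (SE) with an adjusted p of 0.0124. That call was lost when R/R replicate 2 (0.0699) or WT replicate 1 (0.0567) was left out. The lungs overlapped between genotypes for Pdpn, as given above. Aqp5 is also expressed in airway glands, whose markers were listed together with those of airway club cells. Of the 7 genes tested in this list, 3 were higher and 4 lower. None was called by edgeR or DESeq2, and 1 had an unadjusted p under 0.05. The list summed to 12130 to 16050 CPM in R/R and 10060 to 14990 CPM in WT lungs, which overlapped. Averaged over genes on the log2 scale, it was instead highest in WT replicate 3, at 1.42 above its mean. Lpo, also listed, had 0 counts throughout.

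The sign of the fitted change went with exon length among the 10 AT1 genes. The 4 genes with more than 5000 exon bases (Rtkn2 5547, Akap5 6824, Emp2 8644 and Clic5 9669) all had a log2 fold change below 0, and the 6 shorter genes had one above 0, Pdpn by the least. Lama3, Col4a3 and Col4a4 are long genes too, but the 23 other AT1 genes did not follow this split. Of those with more than 5000 exon bases, Spock2, Limch1, Agrn and Ndnf were also below 0, and Gramd2, Krt7, Timp3 and Lmo7 were above 0. Of the shorter ones, Vegfa, Fam189a2, Scnn1g, Flrt3 and Fstl3 were below 0 and the rest above 0. Across all 17120 genes tested, log2 exon length and log2 fold change had a Pearson r of 0.00195, close to 0 (genes are not independent replicates). Split by exon length into 5 groups of like size, these genes had a median log2 fold change of 0.02, 0.03, 0.01, -0.00 and -0.02 from the shortest to the longest, and the share with a higher fitted level in R/R lungs was 53.0%, 56.7%, 52.2%, 49.7% and 44.5%. After this trend was removed, an alternative chosen after the data were seen, the log2 fold change of Aqp5 was 0.24 (adjusted p = 0.0598), so that none of the 10 genes was called. The calls for Lama3 (0.00908), Col4a4 (0.0255) and Col4a3 (0.0384) were kept. The longest minus the shortest of these 5 groups was -0.06, -0.04 and 0.02 in the R/R lungs and 0.05, 0.02 and -0.03 in the WT lungs, with replicate 3 of either genotype on the other side of its group.

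**Figure D4:**
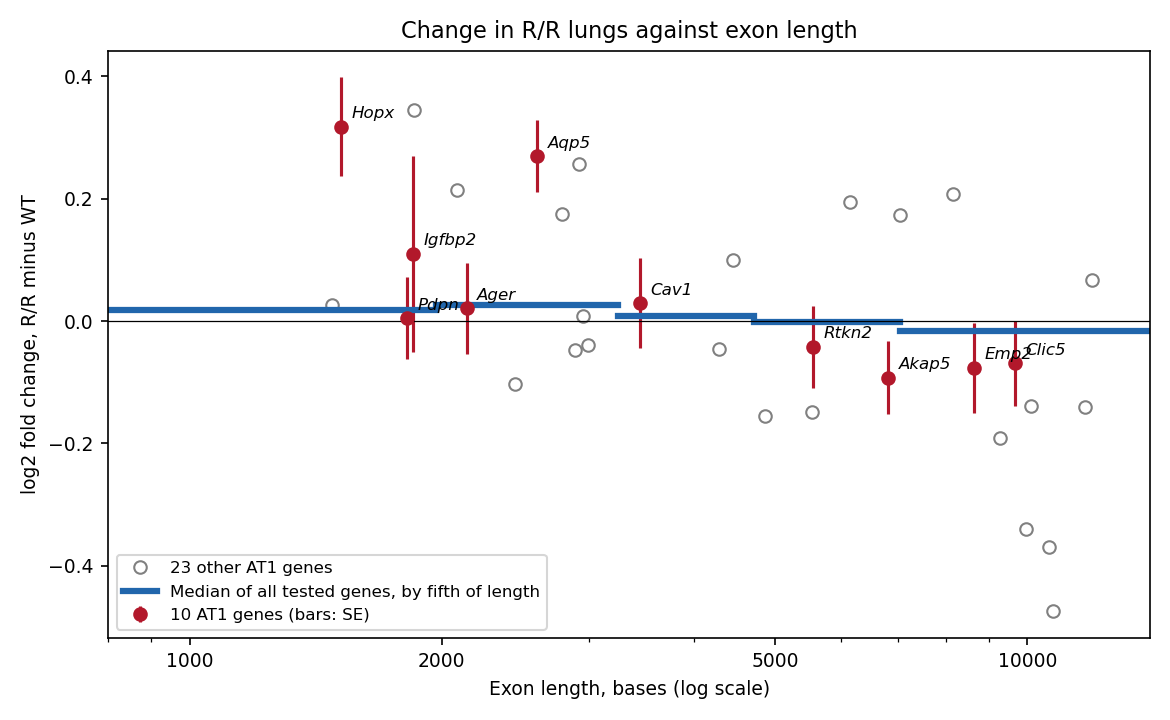
Log2 fold change, R/R minus WT, against exon length in bases (log axis) for the 10 AT1 genes (red, bars are SE) and 23 other AT1 genes (open circles), with the median of all tested genes in each of 5 length groups (blue lines, drawn to the axis ends). The 4 red points above 5000 bases lie below 0, and the blue lines fall from 0.02 in the shortest to -0.02 in the longest group.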

How the data were processed

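Lungs of 3 R/R and 3 WT mice were sequenced (paired-end, 150 bp). Per the study's methods and the submitters' processing notes, reads were aligned to mm10 (GRCm38) with HISAT2 (version 2.1.0). Per the file header, the authors counted them per gene with featureCounts (version 2.0.1) over GENCODE M25 exons, without strand, although the methods describe a stranded library. The deposited values were raw counts, handled here as such. In 1 column of the 6 the deposited whole numbers were entered under the unit of estimated counts for a unit check, and were not changed. The deposited table also lists the exon length of each gene. Symbols matched 55141 of the 56262 identifiers.

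Genotypes were compared with edgeR (version 4.0.16; filterByExpr with a minimum count of 10, TMM scaling, quasi-likelihood test, Benjamini-Hochberg over all genes tested, threshold 0.05), under R (version 4.3.3). The script was tested on simulated data. Single genes were also compared with an exact two-sided permutation test of log2 CPM (prior count 0.5). Alternatives were other scalings and filters, DESeq2 (version 1.42.0), limma-voom (limma version 3.58.1), the edgeR exact test, a replicate block, leaving out each lung, other thresholds and removal of a trend on exon length. The members and gene lists were chosen with earlier results of these data known. Named were all 10 AT1 genes, from each other list every called gene (at most 4 by p) or else the gene with the smallest p, the 5 genes most like the AT1 mean profile, and Rbm47. Some genes that this rule names are not reported here. Promoter sequences are RefSeq (GRCm38.p6). P-values measure the spread between 3 mice per genotype.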

Additional observations from a re-analysis of the deposited data

How the results depend on the processing

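The median log2 fold change of the AT1 genes kept within 1 SD of its reported value under every setting on all 6 lungs. The difference between genotypes in the AT1 to AT2 balance was -0.11 as reported, -0.11 without Cav1 and -0.22 with summed CPM. The number of AT1 genes called was 1 under 6 of the planned settings on 6 lungs. It was 2 with no filter on low counts, with DESeq2, with the edgeR exact test and at an adjusted p of 0.1, and 0 at an adjusted p of 0.01 and with the exon length trend removed, a setting added after the data were seen. Leaving out each lung gave 0 to 1 AT1 genes called, 65 to 621 among all genes and 4 to 32 in the other lists, and a median log2 fold change of the AT1 genes of -0.049 to 0.066. Of all genes tested, 300 were called as reported, 1109 with no filter, 530 with DESeq2, 630 with the edgeR exact test, 548 at an adjusted p of 0.1 and 40 at 0.01. Of the 214 tested genes of the other lists, 12 were called as reported, 60 with no filter, 24 with DESeq2, 22 with the edgeR exact test and 4 at an adjusted p of 0.01. The cause of these differences between tools was not tested.

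With the replicate block, 1 AT1 gene (Aqp5), 446 of all genes and 24 genes of the other lists were called. The numbers are not said to mark litters. Same-numbered R/R and WT lungs had correlations of deviations of -0.014, -0.004 and -0.015 across genes. Differently numbered lungs had correlations between -0.022 and 0.032. All of these values lie near 0, so they cannot decide whether same-numbered lungs were paired.

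Genes with a fitted change near 0 changed sign under some settings, none of them called. With the length trend removed, Ager was at -0.011 and Pdpn at -0.028 on the log2 scale. With single lungs left out, Ager ranged from -0.012 to 0.081 (below 0 without R/R replicate 1 or 2), Pdpn from -0.042 to 0.052 (below 0 without replicate 1 of R/R or of WT, and without WT replicate 3), Cav1 from -0.020 to 0.097 (below 0 without R/R replicate 1), Rtkn2 from -0.097 to 0.0037 (above 0 without WT replicate 1) and Igfbp2 from -0.061 to 0.360 (below 0 without WT replicate 3). Each AT1 gene had at least 2099 counts in every lung (Pdpn the fewest), and the common biological coefficient of variation was 8.62%.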

Other observations

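Over all 17120 genes tested, 8351 had a lower fitted level in R/R lungs, 1.1% were called lower and 0.648% higher. Among all 17 laminin and collagen IV chain genes, a set chosen by name after Lama3, Col4a3 and Col4a4 had been seen, 16 had a lower fitted level in R/R lungs, 7 were called lower and none higher. The 4 called beside those 3 were Col4a1 (log2 fold change -0.57, adjusted p = 0.0111), Col4a2 (-0.49, 0.0202), Col4a5 (-0.57, 0.0104) and Lamc1 (-0.35, 0.0248), which many lung cells express. Lamb3, whose product joins laminin alpha 3 in a common laminin trimer, had a fitted value nearer to 0, at -0.05 (adjusted p = 0.806). Since the set was chosen with values in view, these counts carry no test.

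The genes whose profile over the 6 lungs was most like the mean of the 10 AT1 genes, by the root mean square difference of centred log2 CPM among 14190 genes, were Tmod3 (0.0155), Abca5 (0.0159), Tcaim (0.0170), Myl12a (0.0211) and Adnp2 (0.0216). None of these 5 is an AT1 marker of the lists used here.

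Among 10 genes of the transitional state between AT2 and AT1 cells, 5 had a higher and 5 a lower fitted level in R/R lungs, with 6 at an unadjusted p under 0.05 (14.2% of all genes tested). edgeR called 2, both higher, beside 0.648% of all genes tested that it called higher. DESeq2 called 4, beside 530 over all genes, with Krt8 also higher and Fn1 lower. Areg, an epidermal growth factor receptor ligand, was at 3.72, 10.7 and 8.07 CPM in R/R lungs and 1.58, 2.26 and 3.22 CPM in WT lungs (log2 fold change 1.66 ± 0.36 SE, adjusted p = 0.0434). Lgals3, which encodes galectin 3 and is also abundant in macrophages, was at 120, 99.2 and 104 CPM in R/R lungs and 71.4, 69.8 and 91.7 CPM in WT lungs (0.47 ± 0.10 SE, adjusted p = 0.0447). The call for Areg was kept without R/R replicate 1 (0.00637) or WT replicate 3 (0.0184) and lost without R/R replicates 2 and 3 (0.175 and 0.120) or WT replicates 1 and 2 (0.170 and 0.132). That for Lgals3 was kept without WT replicate 3 (0.00302) and lost without each other lung, at 0.0978 to 0.183.

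Among 11 leukocyte markers, 9 had a lower fitted level in the R/R lungs. An unadjusted p under 0.05 was found for 8 of the 11, beside 14.2% of all genes tested. DESeq2 called 4, of which 3 were lower and 1, Itgax, higher. Of the 3 that edgeR called, all lower (beside 1.1% of all genes tested), Ms4a1 and Cd79a are genes of B cells. Ms4a1 had a log2 fold change of -0.99 (adjusted p = 0.00675) and Cd79a of -0.67 (0.0491). The call for Ms4a1 was kept without each lung, and that for Cd79a was kept without R/R replicate 1 (0.0366) or WT replicate 3 (0.0457) and lost without R/R replicates 2 and 3 (0.132 and 0.0866) or WT replicates 1 and 2 (0.198 and 0.0643). edgeR called no gene in the 8 marker lists that remain beside the AT2 list, where 11 genes had an unadjusted p under 0.05 and DESeq2 called 1, Lyve1. The genes with the smallest p there were Cdh5 for endothelium (log2 fold change -0.16, adjusted p = 0.35), Lyve1 for lymphatic endothelium (0.39, 0.155), Muc5b for airway (-2.34, 0.223), Rsph1 for ciliated cells (0.22, 0.650), Col3a1 for fibroblasts and smooth muscle (-0.26, 0.237), Cidec for adipose tissue (0.45, 0.232), Actc1 for cardiac muscle (-0.31, 0.172) and Mylpf for skeletal muscle (-0.18, 0.845). Muc5b was at 23.5 CPM in WT replicate 3 and at 0.555 to 4.06 CPM in the other lungs. With single lungs left out, its log2 fold change ranged from -3.56 to -0.51.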
